A study of Mus musculus with 16 samples.

Results

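Mitotic genes, as meant here, are 42 genes whose products run mitosis, from the kinases and cyclins of mitotic entry to the proteins of the kinetochore, the spindle and the cleaving cell. They were chosen by symbol, with earlier results of these data known, and each was read from 1 probe set of the array, the brightest that had a signal of at least 200 on at least 2 arrays. Of the 42 genes, 41 had such a probe set, and these 41 were among the 11481 genes tested. Ccnb1, which encodes cyclin B1, was not analysed here, because its probe set carries several gene symbols in the table used.

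The study profiled 4 lines of mouse embryonic fibroblasts, grown as primary cultures, each under 4 treatments, with 1 array for each line and treatment (16 arrays). It asked how cells with altered CBP and p300, a pair of related histone acetyltransferases, respond to trichostatin A (TSA), an inhibitor of histone deacetylases, and to dipyridyl (DP), an iron chelator that stabilises hypoxia-inducible factor. The 2 triCH1 lines lack the CH1 domain, a zinc-binding module that contacts hypoxia-inducible factor, in every allele of CBP and p300 that remains. The line triCH1flox1 had the genotype CBP CH1/flox;p300 CH1/CH1, and triCH1flox2 had CBP CH1/CH1;p300 CH1/flox. The 2 control lines, flox1 and flox2, were CBP +/flox and p300 +/flox. A flox allele is one that Cre deletes, and all 4 lines were infected with a Cre adenovirus at passage 3 and then expanded at least 100 fold, so the control lines too had a single intact copy of CBP or of p300 and no line was left untouched. Cells from e14.5 embryos were treated while subconfluent, in normoxia with 5% CO2 at 37 C. The treatments were TSA (100 ng/ml) with DP (100 uM), TSA alone, DP alone and ethanol vehicle. TSA or its vehicle was added first, DP or its vehicle 30 minutes later, and cells were lysed 3 hours after that. Each class of line is thus 2 lines of different genotype with 1 array a treatment and no replicate cultures, and each spread or p-value below is one between lines.

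Mitosis is driven by Cdk1 bound to A- and B-type cyclins, with the Polo and Aurora kinases. Kinetochore proteins attach chromosomes to spindle microtubules, the spindle checkpoint delays anaphase until all are attached, and Cdc20 then directs the anaphase promoting complex to destroy cyclin B and securin. Many of these genes are transcribed in G2 and M phase through a cell cycle homology region (CHR), a promoter element bound by the DREAM and B-Myb complexes, which often lies downstream of CCAAT boxes bound by NF-Y. In dividing fibroblasts the RNA of such genes follows the share of cells in G2 and mitosis. In RNA from a whole culture, fewer cells in those phases and less transcript in each cell cannot be told apart.

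The arrays had label values of 4.36 to 6.20 for the scaling factor and 102 to 235 for the background, and the median signal ran from 103 to 154. The flox1 vehicle array stood apart in RNA integrity: its 3' to 5' signal ratio was 2.59 for Gapdh (0.907 to 1.26 on the remaining 15 arrays) and 2.07 for actin (1.29 to 1.63 there). The fits that use it were also run without it, and the values are given beside each comparison. Of 10 fibroblast markers, 9 were at 200 or more on all arrays. Summed signals of the markers of macrophages, endothelium, epithelium, skeletal muscle and the erythroid lineage reached at most 1764, against at least 150667 for fibroblasts. The neural sum, mostly Nes, was 1391 to 1807 with TSA, against 419 to 1506 with vehicle, and its part in the results was not tested. Xist, the transcript that silences an X chromosome, was at 1751 to 5389 in both triCH1 lines, against 10.1 to 111 in both control lines, and the Y-linked Eif2s3y at 8.9 to 82.9 in the triCH1 lines, against 974 to 1519 in the control lines, so sex and class of line cannot be told apart. The genes of CBP and p300 are no check of the deletions, because the sources used here do not say where their probe sets lie relative to the deleted exons. Crebbp, the gene of CBP, was at 361 to 1554 in triCH1flox1, 674 to 2499.9 in triCH1flox2, 384 to 1633 in flox1 and 625 to 2069 in flox2. Ep300, the gene of p300, was at 260.2 to 1945 in triCH1flox1, 236 to 941 in triCH1flox2, 433 to 1350.4 in flox1 and 206 to 645 in flox2. These ranges span the 4 treatments, and both genes were lower with TSA than with vehicle in each line, as were 18.6% of all genes. Crebbp was at 361 to 828.1 with TSA, against 1425.1 to 2499.9 with vehicle, and Ep300 at 205.8 to 506, against 645.2 to 1319.3.

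Promoters were compared because many, though not all, members were lower with TSA. RefSeq promoters (build GRCm38.p6, 250 bases before to 50 after the start site) were at hand for 36 of the 42 genes, and they were searched on both strands for TTTGAA or TTCGAA as the CHR and for CCAAT. A CHR match was found in 28 of the 36 (77.8%), against 19.4% of the 27025 promoters of the table. At least 1 CCAAT was found in 28 of 36 as well (77.8%, against 37.9% of all promoters), and 2 or more in 19 of 36 (52.8%, against 12.2%). Both motifs were present in 25 of 36 (69.4%, against 7.70%). The match began within 50 bases of the start site in 26 members, and in 25 a CCAAT lay upstream of a CHR match, with the closest such pair 9 to 153 bases apart. The closest pair was 25 to 40 bases apart in 11 members, and any such pair in 14. The motif letters alone do not show that a factor binds. The last 120 bases before the start site are printed for 6 members, some that fell with TSA and some that did not pass. They are not the 6 with the largest changes. The bases run 5' to 3' in the direction of the gene, with matches in capitals: TTTGAA and TTCGAA, or TTCAAA where the CHR is on the other strand, and CCAAT, or ATTGG where that box is on the other strand.
Cdc20 (chr4:118437344-118437463, minus strand): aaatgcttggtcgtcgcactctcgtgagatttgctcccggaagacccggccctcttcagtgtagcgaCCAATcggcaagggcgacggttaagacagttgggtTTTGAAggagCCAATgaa
Cdk1 (chr10:69352913-69353032, minus strand): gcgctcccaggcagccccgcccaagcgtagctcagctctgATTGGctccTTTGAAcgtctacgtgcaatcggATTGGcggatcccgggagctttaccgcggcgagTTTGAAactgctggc
Kif11 (chr19:37376262-37376381, plus strand): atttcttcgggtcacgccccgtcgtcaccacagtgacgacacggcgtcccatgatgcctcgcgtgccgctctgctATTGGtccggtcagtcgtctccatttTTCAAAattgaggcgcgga
Kif22 (chr7:127042421-127042540, minus strand): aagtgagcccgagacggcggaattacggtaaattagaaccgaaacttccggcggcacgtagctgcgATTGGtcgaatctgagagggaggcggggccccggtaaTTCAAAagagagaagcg
Ube2c (chr2:164769809-164769928, plus strand): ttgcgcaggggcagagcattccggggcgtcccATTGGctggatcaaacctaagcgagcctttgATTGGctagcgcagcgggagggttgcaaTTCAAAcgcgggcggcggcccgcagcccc
Top2a (chr11:99024190-99024309, minus strand): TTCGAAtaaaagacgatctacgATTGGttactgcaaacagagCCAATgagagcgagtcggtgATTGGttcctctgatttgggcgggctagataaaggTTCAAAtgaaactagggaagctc
Cdc20, Cdk1, Kif11 and Kif22 fell with TSA and Ube2c and Top2a did not pass, and all 6 have both motifs. Other members that fell lack a motif. Kif2c, with the largest change, had a CHR match but no CCAAT, Cenpe a CCAAT but no CHR match, and Plk4 neither. Among members with a promoter, a CHR match was found in 15 of 17 that fell with TSA (88.2%) and in 13 of 18 that did not fall (72.2%). Both motifs were in 14 of 17 (82.4%) and 11 of 18 (61.1%). Ccnb1, with no tested probe set, is in neither list. These shares are descriptions of small lists, and their difference was not tested.

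**Figure D1:**
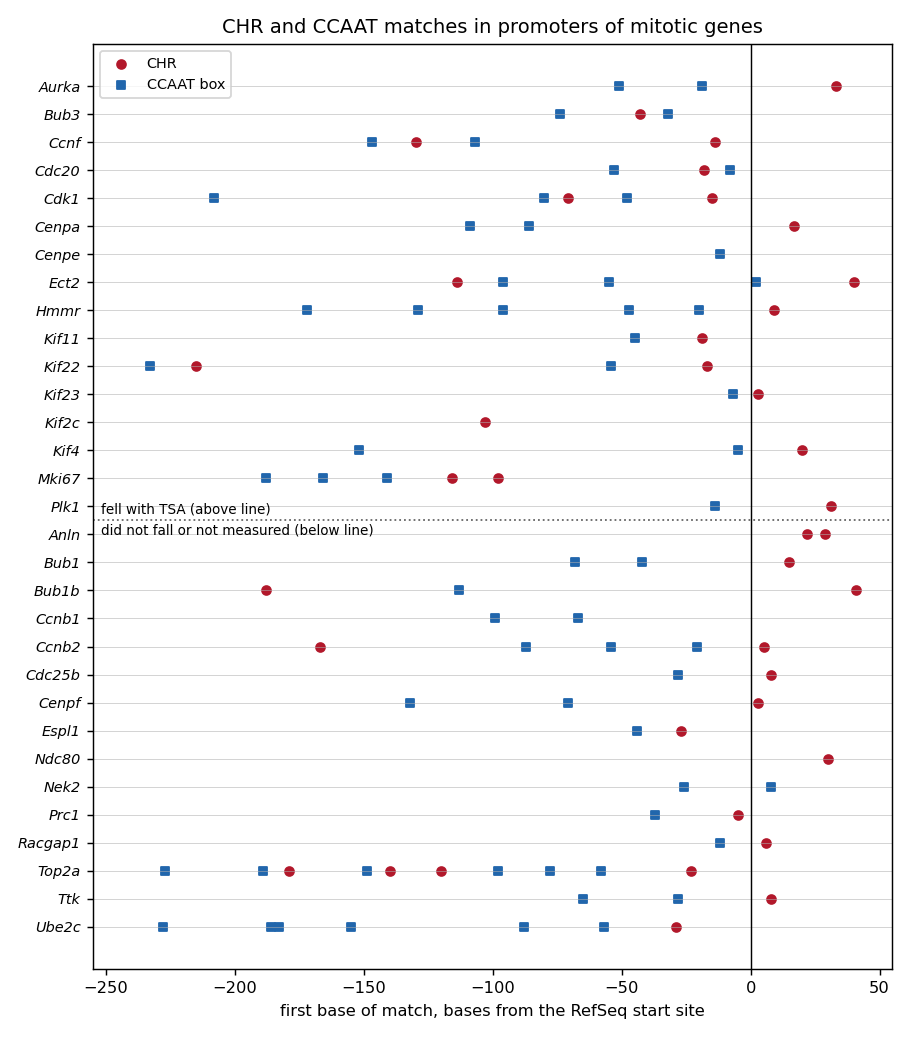
Positions of CHR matches (circles) and CCAAT boxes (squares) in the promoters of mitotic genes with at least 1 match, in bases from the RefSeq start site on the x axis, with genes that fell with TSA above the dotted line. CHR matches gather around the start site, and 26 members have one that begins within 50 bases of it.

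With TSA, 19 of the 41 mitotic genes fell in the 4 lines, against vehicle, and 1 rose. The shares were 46.3% lower and 2.44% higher, beside a background of 12.5% lower and 15.8% higher among all 11481 genes. The median change was -0.25 on the scale of log2(signal + 50), against 0.03 over all genes, and 34 of 41 members had a negative change. Calls are at an adjusted p under 0.05 from limma over all genes tested, and a fold on this scale understates the change of dim genes. In single lines the median change of the members was -0.31 in triCH1flox1, -0.41 in triCH1flox2, -0.30 in flox1 and -0.28 in flox2. The members lower with TSA numbered 34, 36, 24 and 32 of 41 in that order of lines. These are 82.9%, 87.8%, 58.5% and 78.0%, against 46.8%, 47.9%, 49.6% and 46.7% of all genes, so flox1 was nearest to the share of all genes. In 20 members the signal was lower with TSA in all 4 lines, as it was for 18.6% of all genes. In 8 members (Kif2c, Cdc20, Plk4, Plk1, Kif22, Incenp, Ccnf and Bub3) all 4 TSA arrays lay below all 4 vehicle arrays, as for 10% of all genes. The vehicle and TSA arrays shared a series of array barcodes in triCH1flox2, flox1 and flox2 but not in triCH1flox1, whose median was within the range of the others. Without the flox1 vehicle array 19 members fell and 0 rose, with a median of -0.30, and 18 of the 20 calls were kept.

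**Figure D2:**
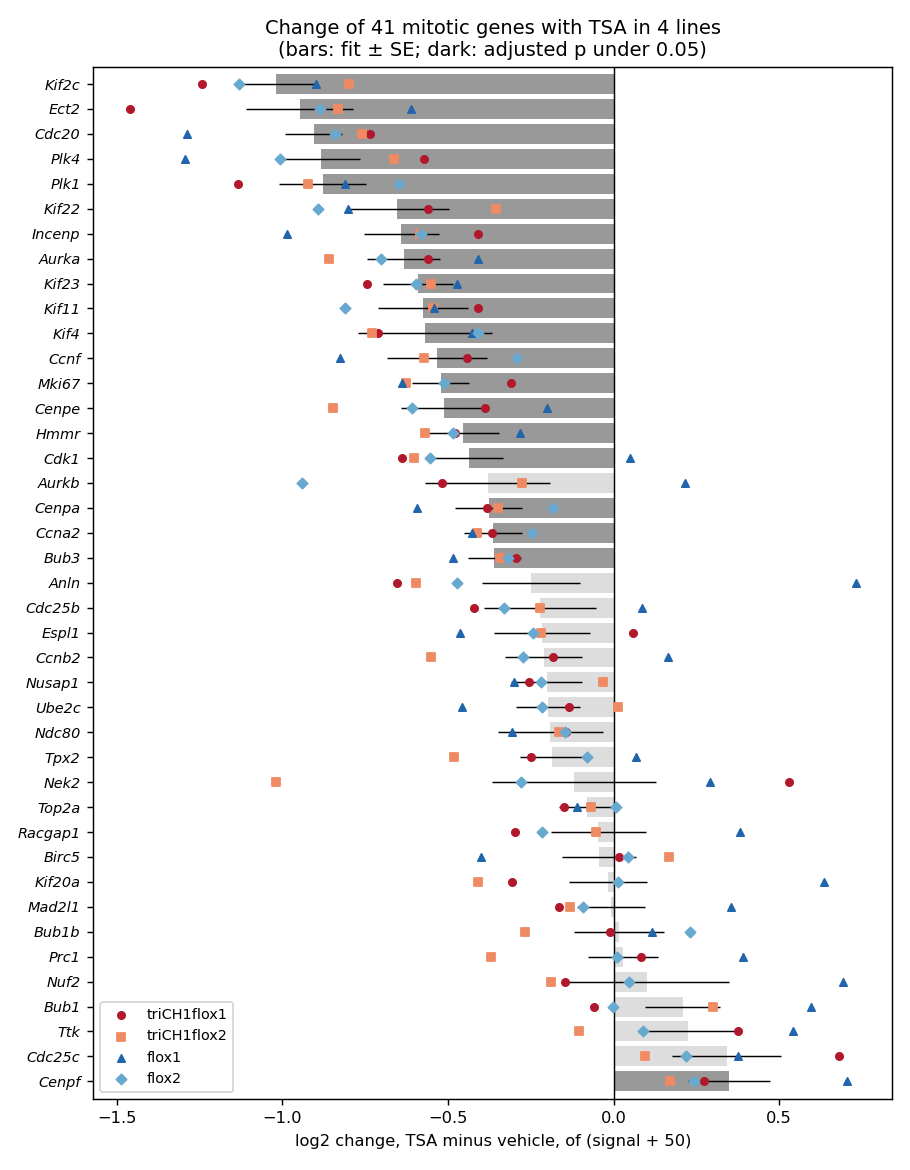
Change of each of 41 mitotic genes with TSA, as log2(signal + 50) with TSA minus vehicle on the x axis, with 1 point for each of the 4 lines and bars for the fitted change ± SE (dark where the adjusted p is under 0.05). The bars run from -1.02 for Kif2c to 0.35 for Cenpf, and in Anln and Kif20a, which did not pass, the point of flox1 lies right of 0 and of the other lines.

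Among the kinases, cyclins and phosphatases of mitotic entry, 6 of 10 fell with TSA and 0 rose. The values of a treatment are given in the order triCH1flox1, triCH1flox2, flox1 and flox2, in the arrays' arbitrary signal units. Plk4, the kinase that starts centriole duplication, gave 1537, 1413, 679.8 and 1018 with TSA, against 2311, 2265, 1742 and 2096 with vehicle. Its groups did not overlap, and the change of -0.88 ± 0.12 (SE, 4 lines) was 1.85-fold lower (adjusted p = 3.65e-05). Plk1, the Polo kinase of mitotic entry and exit, gave 927, 1254, 697 and 1184 with TSA, against 2095, 2419, 1259 and 1885 with vehicle. All of its TSA values lay below the lowest vehicle value, that of flox1, and it fell 1.84-fold (log2 change -0.88 ± 0.13, adjusted p = 9.61e-05). Aurka, the Aurora kinase of centrosomes and spindle poles, gave 1534, 1451, 1101 and 1233 with TSA, against 2287, 2675, 1479 and 2037 with vehicle. It was lower in every line, though the TSA value of triCH1flox1 exceeded the vehicle value of flox1, and it fell 1.55-fold (-0.63 ± 0.11, adjusted p = 0.000407). Cdk1, the central mitotic kinase, gave 4316, 4574, 3451 and 3872 with TSA, against 6755, 6977, 3329.5 and 5706 with vehicle. Its change was -0.44 ± 0.10 (adjusted p = 0.00402), but flox1 did not share it, and without flox2 the change was -0.29 and missed the threshold. The 2 cyclin genes that fell were Ccna2, for cyclin A2 (-0.36, and -0.32 without flox1, which missed), and Ccnf, for cyclin F, a subunit of a ubiquitin ligase (-0.53). The call of Ccnf was lost without flox1 (-0.40), without its vehicle array (-0.41), without triCH1flox1 (-0.56) and without triCH1flox2 (-0.50), and its other probe set had a change of 0.16. Ccnb2, for cyclin B2, had a change of -0.21 (adjusted p = 0.198). The phosphatase genes Cdc25b and Cdc25c, whose products activate Cdk1, had -0.22 and 0.34 without passing. The second probe set of Cdc25c had 1.21 ± 0.24, which passed in a fit of all passing probe sets (adjusted p = 0.0019 by limma). Cdc25c was also called, as higher, with the mean of its probe sets and without probe sets that can bind several transcripts. Nek2, a centrosomal kinase, varied most between lines, from -1.02 in triCH1flox2 to 0.53 in triCH1flox1.

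Of the chromosomal passenger complex, which corrects faulty kinetochore attachments, 1 of 3 measured genes fell. Incenp, its scaffold, gave 3663, 3501, 2359.7 and 2979 with TSA, against 4881, 5277, 4726 and 4480.2 with vehicle, with no overlap (change -0.64 ± 0.11, 1.56-fold lower, adjusted p = 0.000434). Its probe set is of a kind that can bind several transcripts, and the brightest other probe set had a change of -0.32 that missed. Aurkb, the kinase of the complex, had -0.38 (adjusted p = 0.151) and was lower in 3 lines. Birc5, which encodes survivin, had -0.04.

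Centromere and kinetochore genes moved in both directions, with 2 of 5 lower and 1 higher. Cenpe, the kinesin that carries chromosomes to the spindle equator, gave 1382, 1144, 1075 and 953 with TSA, against 1824, 2098, 1243 and 1481 with vehicle. It was lower in each line, its groups overlapped, and it fell 1.43-fold (-0.51 ± 0.13, adjusted p = 0.00753). Without flox2 the change was -0.41 and without triCH1flox2 -0.40, both short of the threshold. Cenpa, the centromeric histone H3 variant, had -0.38 (adjusted p = 0.00985), a call lost without flox1 (-0.27), triCH1flox1 (-0.37) or triCH1flox2 (-0.38). Cenpf, a kinetochore protein of late G2 and mitosis, was the 1 member that rose in the fit of the tested probe sets. Its signals were 2069.5, 2768, 1534 and 1877 with TSA, against 1704, 2454, 921 and 1578 with vehicle. The change of 0.35 ± 0.12 was 1.27-fold higher in the fit and positive in all 4 lines (adjusted p = 0.0465). That call was lost without the flox1 vehicle array (0.26), without flox1 (0.23), triCH1flox1 (0.32), flox2 (0.46) or triCH1flox2 (0.37), and with a term for the barcode series (0.32). The other 2 probe sets of Cenpf had changes of -0.05 and 0.40. The Ndc80 complex genes Ndc80 and Nuf2, whose products hold microtubule ends, had -0.19 and 0.10.

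In the spindle checkpoint, 1 of 5 genes fell and the median change was 0.02. Bub3, which brings checkpoint proteins to kinetochores, gave 5875, 5552, 5008 and 5179.7 with TSA, against 7212, 7049, 7031 and 6467 with vehicle, with no overlap (-0.36 ± 0.08, adjusted p = 0.00306). The brightest of its probe sets that is not shared between transcripts had -0.04 and did not pass. The other checkpoint genes had changes of -0.01 for Mad2l1, 0.02 for Bub1b, 0.21 for Bub1 and 0.23 for Ttk, the Mps1 kinase. None of these 4 passed.

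Of the 3 genes of anaphase and mitotic exit, 1 fell. Cdc20, the activator of the anaphase promoting complex, had the smallest adjusted p of the members. Its signals were 7569.8, 7064, 3634 and 6274 with TSA, against 12637, 11985, 8953 and 11272 with vehicle. The groups did not overlap, each line lost signal, and the change of -0.91 ± 0.08 was 1.87-fold lower (adjusted p = 1.14e-06). Its other probe sets had changes of -0.90 and -1.44. Ube2c, the ubiquitin-conjugating enzyme that works with that complex, had -0.20 (adjusted p = 0.144). Espl1, which encodes separase, the protease that cuts cohesin, had -0.22 (adjusted p = 0.298).

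Kinesins and spindle proteins held the largest share of lower calls, 6 of 9. Kif2c, the kinesin that depolymerises microtubules at centromeres, gave 991, 1172, 915 and 884 with TSA, against 2417, 2077, 1748 and 1997 with vehicle. The highest TSA value lay below the lowest vehicle value, and the change of -1.02 ± 0.12 was 2.03-fold lower (adjusted p = 1.23e-05), the largest among the members. Its other probe sets had changes of -0.14 and -0.64. Kif22, a chromosome-bound kinesin, gave 4557, 6005, 4761 and 4178 with TSA, against 6744, 7697, 8338 and 7804 with vehicle. It too had no overlap and fell 1.57-fold (-0.65 ± 0.16, adjusted p = 0.0046), while its probe set that is not shared between transcripts had -0.42 and missed. The other 4 that fell were Kif23 (-0.59) of the central spindle, Kif11 (-0.58), which separates the poles, Kif4 (-0.57) of the chromosome arms and midzone, and Hmmr (-0.45), a spindle pole protein. The call of Kif11 was lost without flox2 (-0.51), that of Hmmr without flox2 (-0.40) and with the mean of its probe sets (-0.22), and that of Kif4 without triCH1flox1 (-0.57), without triCH1flox2 (-0.56) and with a term for the barcode series (-0.51). Kif20a, a kinesin of cytokinesis, gave 1399.9, 1721, 1162 and 1396 with TSA, against 1742, 2302, 731 and 1381 with vehicle. It was lower in both triCH1 lines, higher in flox1 and nearly level in flox2, and the change of -0.02 ± 0.12 did not pass (adjusted p = 0.941). The spindle assembly genes Tpx2 and Nusap1 had -0.18 and -0.20 without passing.

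Of the genes of the midzone and cytokinesis, 1 of 4 fell. Ect2, the exchange factor that activates RhoA at the cell equator, gave 819, 1316, 609.9 and 833 with TSA, against 2342, 2381, 959 and 1583 with vehicle. It was lower in every line, from -0.61 in flox1 to -1.46 in triCH1flox1, and fell 1.93-fold (-0.95 ± 0.16, adjusted p = 0.000313). The groups overlapped because the vehicle signal of flox1 was low. Anln, which encodes the scaffold anillin, had changes of -0.65, -0.60 and -0.47 in triCH1flox1, triCH1flox2 and flox2 and of 0.73 in flox1, and did not pass (-0.25). The midzone bundler Prc1 and Racgap1, the partner of Ect2, had 0.03 and -0.05. Of the chromosome structure genes, Mki67, whose Ki-67 protein coats mitotic chromosomes, gave 5356, 5414, 3334 and 4488 with TSA, against 6651, 8394, 5219 and 6419 with vehicle. It fell 1.44-fold (-0.52 ± 0.09, adjusted p = 0.000253) and was lower in 4 of 4 lines. Top2a, topoisomerase II alpha, gave 5234, 6109, 3638 and 5031 with TSA, against 5811, 6401, 3929.7 and 5002 with vehicle, values that overlapped (change -0.08 ± 0.09, adjusted p = 0.536). Its second probe set had a change of 0.48.

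**Figure D3:**
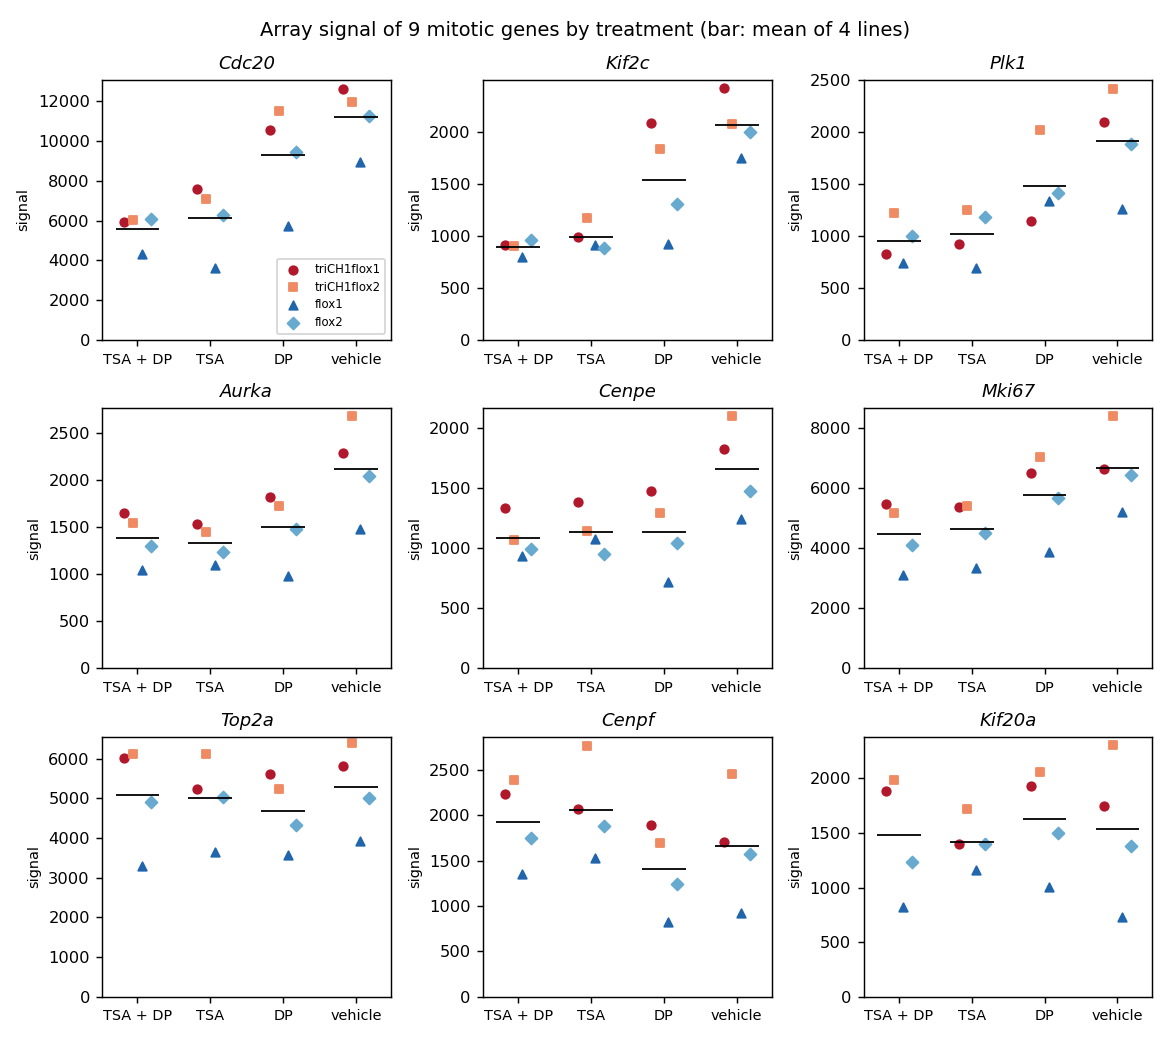
Array signal of 9 mitotic genes on the y axis under TSA with DP, TSA, DP and vehicle, with 1 point for each line and a bar at the mean of the 4 lines. Cdc20 and Kif2c with TSA lie below all vehicle values, while Top2a and Kif20a overlap across treatments and flox1 is the lowest line in most panels.

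Several members are read by more than 1 probe set, 24 of the 41 by several that passed the filter. Of the 24 other probe sets of the genes that fell with TSA, 23 also had a negative change. The exception was that of Ccnf. The tested probe sets of Cdc20, Kif2c, Kif22, Incenp, Aurkb and Cdc25c can bind several transcripts of like sequence, and those of Plk4, Bub3, Bub1b, Nek2 and Prc1 can bind several related ones. Without probe sets of those kinds 16 members fell with TSA and 2 rose, Cenpf and Cdc25c.

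No difference between the classes of line in the TSA change was found by limma. The count was 0 of 41 members and 0 of all genes (0%), with 3 members at an unadjusted p under 0.05. These were Kif20a, Anln and Plk4, with differences, triCH1 minus control, of -0.68, -0.76 and 0.53 (adjusted p = 0.809 for each). For the others named throughout, the differences were -0.30 for Plk1, -0.15 for Aurka, 0.32 for Cdc20, -0.21 for Cenpe, -0.06 for Top2a and 0.11 for Mki67. The standard errors of these 6 ran from 0.17 to 0.26, so differences of these sizes could not be told from 0 here. Without the flox1 vehicle array 0 members had an unadjusted p under 0.05, and the differences were -0.47 for Kif20a, -0.28 for Anln and 0.41 for Plk4.

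Other genes of mitosis, 111 of them measured, had 29 lower (26.1%) and 10 higher calls (9.01%) with TSA and a median change of -0.19. The groups with lower calls were spindle and cytokinesis (9 of 21), kinetochore and centromere (7 of 35), cohesin and condensin (4 of 15), the anaphase promoting complex (4 of 14), regulators of entry (4 of 13) and transcription in G2 and M phase (1 of 13). The 6 with the smallest adjusted p were Psrc1 (-1.30), a spindle protein, Smc3 (0.93), a cohesin subunit, Fbxo5 (-0.93), the Emi1 inhibitor of the anaphase promoting complex, Ncapd3 (0.98), a condensin II subunit, Ckap2 (-1.08), a spindle protein, and Cdc26 (-0.88), a subunit of the anaphase promoting complex. Of 30 DNA replication genes, 4 fell (13.3%) and 3 rose (10%), with a median of -0.03, beside 12.5% and 15.8% of all genes. Cdkn1a, the cell cycle inhibitor p21, was listed as the check of the TSA treatment. It did not rise but had a change of -0.28 ± 0.09 (adjusted p = 0.0341 by limma). Its signals were 5974, 4336, 7793 and 5928 with TSA, against 6454, 4697, 9978 and 8691 with vehicle, lower in each line.

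With DP alone few mitotic genes were called. Against vehicle, 5 of 41 fell in the 4 lines and 0 rose, beside 0.27% of all genes lower and 1.44% higher. The median change was -0.19, against -0.03 over all genes, and 34 of 41 were negative. As a check of the treatment, Bnip3, a mitophagy gene induced by hypoxia-inducible factor, was 8.92-fold higher with DP in the triCH1 lines and 12.5-fold in the control lines. Egln3, an oxygen-sensing prolyl hydroxylase gene, was 3.24-fold higher in the triCH1 lines and 13.5-fold in the control lines, and its change differed between the classes (-2.06, triCH1 minus control, adjusted p = 0.0104 by limma). The median of the members was -0.05 in triCH1flox1, -0.25 in triCH1flox2, -0.24 in flox1 and -0.24 in flox2. The vehicle and DP arrays shared a barcode series in triCH1flox2, flox1 and flox2 but not in triCH1flox1.

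The 5 genes that fell with DP came from different parts of the mitotic machinery. Aurka gave 1812, 1722, 982 and 1479 with DP, against 2287, 2675, 1479 and 2037 with vehicle, lower in each line (-0.49 ± 0.11, 1.41-fold, adjusted p = 0.028). Espl1 gave 529.5, 514, 395 and 364 with DP, against 575, 845, 744 and 749.5 with vehicle (-0.64 ± 0.15, 1.56-fold lower, adjusted p = 0.0308). All DP values of Espl1 lay below the lowest vehicle value, that of triCH1flox1. Incenp gave 4328, 3723, 2462 and 3510.2 with DP, against 4881, 5277, 4726 and 4480.2 with vehicle (-0.49 ± 0.11, adjusted p = 0.0352). Cenpe gave 1477, 1297, 717 and 1046 with DP, against 1824, 2098, 1243 and 1481 with vehicle (-0.55 ± 0.13, adjusted p = 0.0406). In Incenp the groups did not overlap, and in Cenpe they did. Kif22 gave 5862, 3617, 4897 and 5341 with DP, against 6744, 7697, 8338 and 7804 with vehicle, with no overlap (-0.65 ± 0.16, adjusted p = 0.0438). All 5 genes were lower in 4 of 4 lines, a pattern that 9.7% of all genes showed, and 14 members had it in all. The groups did not overlap in 3 members, Espl1, Incenp and Kif22, as in 1.99% of all genes. None of the 5 calls held without the flox1 vehicle array, when the changes were -0.52 for Aurka, -0.63 for Espl1, -0.35 for Incenp, -0.58 for Cenpe and -0.67 for Kif22. Without the flox1 line or without the triCH1flox2 line 0 passed, without triCH1flox1 or flox2 1 did, and without the line as a block 1 did. Of all genes, 196 passed in either direction in the fit of all arrays, 111 without flox1 and 108 without triCH1flox2. That count was 155 without triCH1flox1, 195 without flox2, 145 without the flox1 vehicle array and 135 without the block. Without probe sets that can bind several transcripts the changes of Incenp (-0.24) and Kif22 (-0.38) missed the threshold, as they did with the mean of probe sets (-0.32 and -0.45).

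Members past no threshold with DP included Kif2c (-0.47, adjusted p = 0.0664), Cdc20 (-0.30), Plk1 (-0.35), Mki67 (-0.22), Top2a (-0.17) and Kif20a (0.13). Cdc20 gave 10579, 11498, 5728 and 9441 with DP, against 12637, 11985, 8953 and 11272 with vehicle, and was lower in each line. Plk1 gave 1146, 2026, 1336 and 1413 with DP, against 2095, 2419, 1259 and 1885 with vehicle. Plk1 was lower in 3 lines, most in triCH1flox1, and higher in flox1. The entry group had 1 of 10 lower calls, the passenger complex 1 of 3, the centromere 1 of 5, anaphase 1 of 3 and kinesins 1 of 9, while the checkpoint, midzone and chromosome structure groups had 0. Of the 111 other mitotic genes, 1 rose, Ccng2 (1.80), for the atypical cyclin G2, and 1 fell, Fbxo5 (-0.46). Of 30 DNA replication genes 2 rose (6.67%) and 0 fell.

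By class of line, the DP comparison of the control lines alone called 2 members lower and 0 higher, beside 0.331% of all genes lower and 1.22% higher. They were Espl1 (-0.89 ± 0.21, adjusted p = 0.0402) and Kif2c (-0.75 ± 0.17, adjusted p = 0.039). Without the flox1 vehicle array the changes were -0.88 and -0.73 and 0 members passed. Neither call held when any 1 of the 4 lines was left out. Those fits called 0 members without flox1 and 1 other gene in each of the remaining fits, Incenp without flox2 and Kif22 without triCH1flox1 or triCH1flox2. Kif2c had a change of -0.12 without probe sets that can bind several transcripts and of -0.06 with the mean of its probe sets, and missed in both. In the triCH1 lines limma called 0 of 41, beside 0.00871% of all genes lower and 0.566% higher, with 4 at an unadjusted p under 0.05 (Aurka -0.47, Plk1 -0.55, Kif22 -0.64 and Cenpe -0.48). Without triCH1flox1, 1 member passed there, Kif22 (-1.08, picked out after its value was seen), beside 36 of all genes. That fit sets 1 DP array against 1 vehicle array of triCH1flox2 and takes its spread from the other lines. The difference between the classes was past the threshold in 0 of 41 members, beside 0.0261% of all genes, with 1 at an unadjusted p under 0.05, or 0 once the vehicle array of flox1 was left out. For Espl1 it was 0.50 ± 0.29 and for Kif2c 0.56 ± 0.24, triCH1 minus control.

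In cells that also received DP, 14 of 41 mitotic genes fell with TSA and 3 rose, beside 12.2% of all genes lower and 17.7% higher. The median change was -0.19, and 29 of 41 were negative. The arrays with TSA and DP shared a barcode series with the DP arrays in triCH1flox1, triCH1flox2 and flox1 but not in flox2. In 22 members the signal was lower in all 4 lines, as in 20.7% of all genes, and in 3, Plk4, Cdk1 and Bub3, the groups did not overlap, as in 9.9%. Plk4 gave 1298, 1199.7, 859 and 964 with TSA and DP, against 2335, 2246, 1304 and 2349 with DP, with no overlap (-0.88 ± 0.12, 1.84-fold lower, adjusted p = 3.53e-05). The brightest of its probe sets that is not shared between transcripts had -0.33 and missed. Cdc20 gave 5925, 6048, 4337 and 6063 with TSA and DP, against 10579, 11498, 5728 and 9441 with DP (-0.70 ± 0.08, adjusted p = 1.42e-05). Each line lost Cdc20 signal, and the groups overlapped because the DP value of flox1 was low. Ect2 gave 1313, 1023, 561 and 945 with TSA and DP, against 2197, 2263, 1076 and 985 with DP, nearly level in flox2 (-0.69 ± 0.16, adjusted p = 0.00354). Kif2c gave 914, 901, 795 and 955 with TSA and DP, against 2087, 1834, 917 and 1302 with DP (-0.69 ± 0.12, adjusted p = 0.000396). The Kif2c signal was lower in each line, and a difference between the classes in this change was not tested. Kif22 gave 2587, 4145, 3377 and 2437 with TSA and DP, against 5862, 3617, 4897 and 5341 with DP (-0.65 ± 0.16, adjusted p = 0.0042). It was higher in triCH1flox2 and lower in the other lines, and the call was lost without triCH1flox1 (-0.31), without flox2 (-0.51) and without probe sets that can bind several transcripts (-0.12). Plk1 gave 830.2, 1227, 736 and 1005 with TSA and DP, against 1146, 2026, 1336 and 1413 with DP, lower in every line (-0.61 ± 0.13, adjusted p = 0.00201). The call of Ect2 was lost without flox1 (-0.49).

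The other 8 that fell in DP were Cdk1 (-0.55), Ccna2 (-0.41), Kif23 (-0.37), Mki67 (-0.37), Hmmr (-0.33), Ccnb2 (-0.32), Incenp (-0.31) and Bub3 (-0.28). Cdk1 was lower in all 4 lines here, flox1 included. Cenpf (0.47 ± 0.12, adjusted p = 0.00891), Cdc25c (0.56 ± 0.16, adjusted p = 0.0167) and Ttk (0.45 ± 0.14, adjusted p = 0.0263) rose and were higher in 4 of 4 lines. Cdc25c gave 869, 706, 480.3 and 685 with TSA and DP, against 559.6, 693, 204 and 454 with DP, and its other probe set had 0.13. Ttk gave 1205, 1168, 639.5 and 831 with TSA and DP, against 931, 1017, 381 and 545 with DP. Aurka (-0.09), Cenpe (-0.03), Kif20a (-0.16) and Top2a (0.10) did not pass. The count of 17 became 8 without flox1, 12 without flox2, of which 9 were among the 17, 10 without triCH1flox1 and 10 without triCH1flox2, and 9 without the line as a block. With the flox1 vehicle array left out 19 passed, the 17 among them. The count became 12 without probe sets that can bind several transcripts, when Bub3 (-0.34), Cdc25c (0.13) and Incenp (-0.16) were lost besides Plk4 and Kif22. With the mean of probe sets it was 12, of which 11 were among the 17, and the changes that missed were -0.31 for Bub3, 0.34 for Cdc25c, 0.43 for Cenpf, -0.27 for Hmmr, -0.10 for Incenp and 0.33 for Ttk. Without flox1 the changes of Kif23, Bub3, Ccnb2, Hmmr and Incenp were -0.39, -0.26, -0.27, -0.31 and -0.29, and those of Cenpf, Cdc25c and Ttk 0.42, 0.43 and 0.42, all short of the threshold. Without flox2 the changes that missed were -0.33 for Mki67, -0.35 for Kif23, -0.30 for Bub3, -0.38 for Ccnb2, -0.35 for Hmmr, -0.34 for Incenp and 0.48 for Ttk. Without triCH1flox1 and without triCH1flox2 the changes were -0.32 and -0.24 for Bub3, -0.32 and -0.32 for Ccnb2, -0.37 and -0.29 for Hmmr, -0.35 and -0.27 for Incenp and 0.41 and 0.49 for Ttk, again short of it. Cdc25c also missed without triCH1flox1 (0.42), and Kif23 (-0.31) and Cenpf (0.41) without triCH1flox2.

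The TSA changes with and without DP can be set side by side, since they share no array. In both comparisons 13 genes fell, which is 68.4% of the 19 that fell without DP and 92.9% of the 14 that fell with it. Over all genes 959 fell in both, 67% of the 1432 without DP and 68.5% of the 1400 with it. Over the 41 members the changes correlated with r = 0.83 (n = 41 genes read from the same 4 lines), against 0.77 over all genes, and 28 members were negative in both. The test of the difference between the TSA changes with and without DP called 0 of 41 members with limma, beside 0.392% of all genes, with 4 at an unadjusted p under 0.05. These were Aurka (0.54 ± 0.16, adjusted p = 0.317), Cdc25b (0.64), Cenpe (0.48) and Espl1 (0.54), each with a higher TSA change in DP than without it. With the flox1 vehicle array left out, 0 members were called and 4 had an unadjusted p under 0.05. For Cdc20 the difference was 0.21, for Plk1 0.27, for Kif20a -0.14, for Top2a 0.18 and for Mki67 0.15. Of the other mitotic genes 30 fell (27.0%) and 17 rose (15.3%) with TSA in DP, led by Ccng2 (-1.62), Smc3 (0.82), Psrc1 (-1.01), Gtse1 (-1.13), a G2 and S phase protein, Lin54 (0.99), a DREAM subunit that binds the CHR, and Ckap2 (-1.04).

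**Figure D4:**
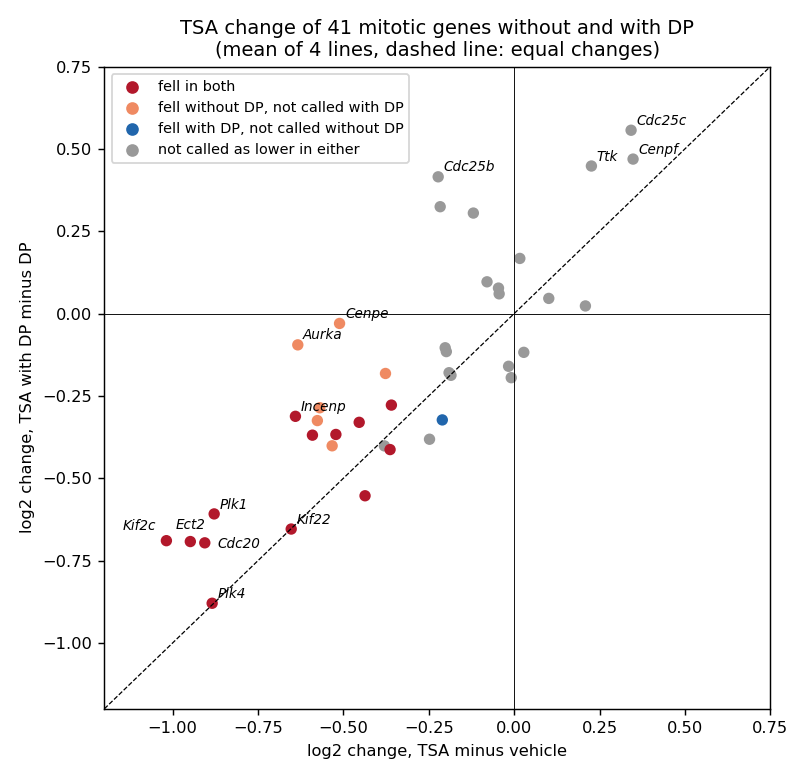
Log2 change with TSA of 41 mitotic genes without DP (x axis, TSA minus vehicle) and with DP (y axis, TSA with DP minus DP), each the mean of 4 lines, with a dashed line at equal changes. Plk4, Kif22 and Cdc20 lie low on both axes, while Aurka and Cenpe lie near 0 on the y axis.

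Adding DP to TSA changed no member past the threshold. TSA with DP against TSA alone gave 0 of 41 calls by limma, beside 0.00871% of all genes lower and 0.139% higher, with 2 members at an unadjusted p under 0.05, Kif22 (-0.65 ± 0.16, adjusted p = 0.247) and Prc1 (-0.33 ± 0.11, adjusted p = 0.685). Kif22 gave 2587, 4145, 3377 and 2437 with TSA and DP, against 4557, 6005, 4761 and 4178 with TSA, the 1 member whose groups did not overlap, as in 1.45% of all genes. In 5 members the signal was lower in all 4 lines, as in 7.73% of all genes. The changes of the others named throughout ran from -0.09 for Cdc20 to 0.05 for Aurka.

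Under both agents 21 of 41 mitotic genes were called lower than with vehicle and 0 higher, beside 13.8% and 17.8% of all genes, with a median of -0.35. Without the flox1 vehicle array the count was again 21, of which 18 were among these, with a median of -0.38. In 23 members the signal was lower in all 4 lines, as in 20.9% of all genes, and in 9 the groups did not overlap, as in 10.4%. This comparison and the preceding ones share arrays and are not independent. The arrays with both agents shared a barcode series with the vehicle arrays in triCH1flox2 and flox1 but not in triCH1flox1 and flox2. Kif22 was lowest relative to vehicle (-1.30 ± 0.16, 2.46-fold lower, adjusted p = 1.04e-05), followed by Kif2c (-1.16 ± 0.12, 2.23-fold, adjusted p = 2.79e-06) and Cdc20 (2.00-fold, adjusted p = 3.44e-07). Without probe sets that can bind several transcripts the changes were -0.50 for Kif22, -0.34 for Plk4 and -0.01 for Bub3, and these missed. Plk1 (-0.96), Plk4 (-0.94) and Ect2 (-0.86) came next, and Incenp (-0.80), Aurka (-0.59), Cenpe (-0.58) and Mki67 (-0.59) also fell. Kif20a (-0.03) and Top2a (-0.07) did not pass. Ndc80 (-0.46), Ube2c (-0.29) and Prc1 (-0.30) passed here, but the call of Ndc80 was lost without flox1 (-0.47), its vehicle array (-0.44), flox2 (-0.44) or triCH1flox2 (-0.21). That of Ube2c was lost without flox1 (-0.29), its vehicle array (-0.25), flox2 (-0.29) or triCH1flox1 (-0.14), and that of Prc1 without flox2 (-0.20), triCH1flox1 (-0.35) or triCH1flox2 (-0.24). The change of Prc1 was -0.07 with the mean of its probe sets and turned to 0.15 without probe sets that can bind several transcripts. Cenpe missed without triCH1flox2 (-0.45).

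Mean levels of the mitotic genes were above the control lines' levels in the triCH1 lines, without any member past the threshold. On the means of each line over the 4 treatments, all 41 differences, triCH1 minus control, were positive, with a median of 0.45 against -0.01 over all genes. Limma called 0 of 41, beside 0.0174% of all genes higher and 0.139% lower, with 29 members at an unadjusted p under 0.05. The replicates here are 2 lines against 2, for which an exact two-sided permutation test cannot go below p = 0.333. Both triCH1 lines lay above both control lines for 33 of 41 members, as for 21.7% of all genes. The exceptions were Ccna2, Cdc25b, Plk1, Birc5, Nuf2, Ube2c, Kif22 and Kif23. The other probe sets of Kif22 had differences of 0.64 and 0.52, against 0.03 for the tested one. That of Kif23 had 0.74, against 0.34. Negative differences were found in other probe sets of Bub3, Cenpf, Hmmr, Incenp, Kif2c and Tpx2, down to -0.59 in Tpx2. Within single treatments the median differences were 0.42 with TSA and DP, 0.38 with TSA, 0.51 with DP and 0.47 with vehicle. Both triCH1 lines were above both control lines for 27 members with TSA and DP, 29 with TSA, 30 with DP and 30 with vehicle (18.7%, 16.3%, 20.9% and 18.4% of all genes in that order). Limma called 0 members in each treatment, beside 0.00871% of all genes higher in each and 0.0523% lower with TSA and DP, 0.0174% with TSA, 0.0871% with DP and 0.00871% with vehicle. At an unadjusted p under 0.05 there were 19 with TSA and DP, 14 with TSA, 23 with DP and 18 with vehicle. Without the flox1 vehicle array, 3 members had such a p with vehicle (median 0.25, 39 positive) and 28 on line means (median 0.49, 41 positive), and limma called 0 in both. Without flox2 limma called 3 members with TSA (Birc5 0.90, Cenpa 1.07 and Cdc20, which was 2.00-fold higher) and Ccnb2 (1.31) with TSA and DP, and without triCH1flox2 Ccnb2 (1.04) and Mad2l1 (0.83) with TSA and DP, all picked out after their values were seen. In these fits 1 class is a single array, assumed to vary like those of the other class, and they called 70 of all genes with TSA without flox2, 21 with TSA and DP without flox2 and 178 with TSA and DP without triCH1flox2.

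Ccnb2 and Ect2 had the smallest adjusted p of the class differences and were picked out after their values were seen. Ccnb2 averaged 3333 and 3776 in triCH1flox1 and triCH1flox2, against 1541 and 2229 in flox1 and flox2 (0.91 ± 0.17, adjusted p = 0.125). Ect2 averaged 1668 and 1746 in triCH1flox1 and triCH1flox2, against 802 and 1086 in flox1 and flox2 (0.78 ± 0.16, adjusted p = 0.151). In both genes each triCH1 line exceeded each control line, and flox1 was lowest. Aurka averaged 1821 and 1848 in triCH1flox1 and triCH1flox2, against 1152 and 1512 in flox1 and flox2 (0.45 ± 0.14, adjusted p = 0.36). Cdc20 averaged 9178 and 9149 in triCH1flox1 and triCH1flox2, against 5663 and 8263 in flox1 and flox2 (0.43 ± 0.17, adjusted p = 0.433). Flox2 was nearer to the triCH1 lines than to flox1 in Cdc20. Plk1 averaged 1249.6 and 1731 in triCH1flox1 and triCH1flox2, against 1007 and 1372 in flox1 and flox2 (0.28 ± 0.20), with flox2 above triCH1flox1. Cenpe averaged 1504 and 1401 in triCH1flox1 and triCH1flox2, against 993 and 1119 in flox1 and flox2 (0.44 ± 0.13). Kif20a averaged 1738 and 2016 in triCH1flox1 and triCH1flox2, against 929.5 and 1378 in flox1 and flox2 (0.70 ± 0.19). Both genes had the triCH1 lines above the control lines, Kif20a by more. Top2a averaged 5667 and 5963 in triCH1flox1 and triCH1flox2, against 3611 and 4819 in flox1 and flox2 (0.47 ± 0.14). Mki67 averaged 5992 and 6501 in triCH1flox1 and triCH1flox2, against 3881 and 5176 in flox1 and flox2 (0.48 ± 0.14). In Top2a and Mki67 too flox1 was lowest and flox2 next. By role, the median class difference was 0.60 for the centromere and kinetochore, 0.57 for the midzone, 0.56 for the checkpoint, 0.48 for chromosome structure, 0.44 for entry, 0.34 for kinesins, 0.34 for the passenger complex and 0.32 for anaphase.

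Much of the class difference lay between flox1 and the other 3 lines. The flox1 line was lowest for 39 of 41 members, as it was for 29.4% of all genes. Between the 2 control lines, flox2 minus flox1 had a median of 0.39 and was positive in 39 members. Against flox2 alone, triCH1flox1 had a median of 0.26 and was higher in 36 of 41, and triCH1flox2 had 0.30 and was higher in 39. The label background of the flox1 arrays was 180.02 to 235, against 102 to 198 in the other 3 lines, and its part in the lower flox1 signals was not tested. With flox2 left out, which sets 2 triCH1 lines against flox1 alone with the spread of the triCH1 lines, 21 members passed (209 of all genes), and without flox1 0 did. A fit of all 16 arrays with the line as a random block, in which arrays of a line count as partly independent, called 16 members and 255 of all genes. Of the other mitotic genes 94 of 111 were positive on line means, with a median of 0.28, and of the DNA replication genes 28 of 30, with a median of 0.29. Cdkn1a, which restrains cell cycle entry, ranged over 4336 to 8734 across triCH1 arrays and over 5928 to 13454 across control arrays (-0.59 ± 0.13 on line means, adjusted p = 0.192).

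**Figure D5:**
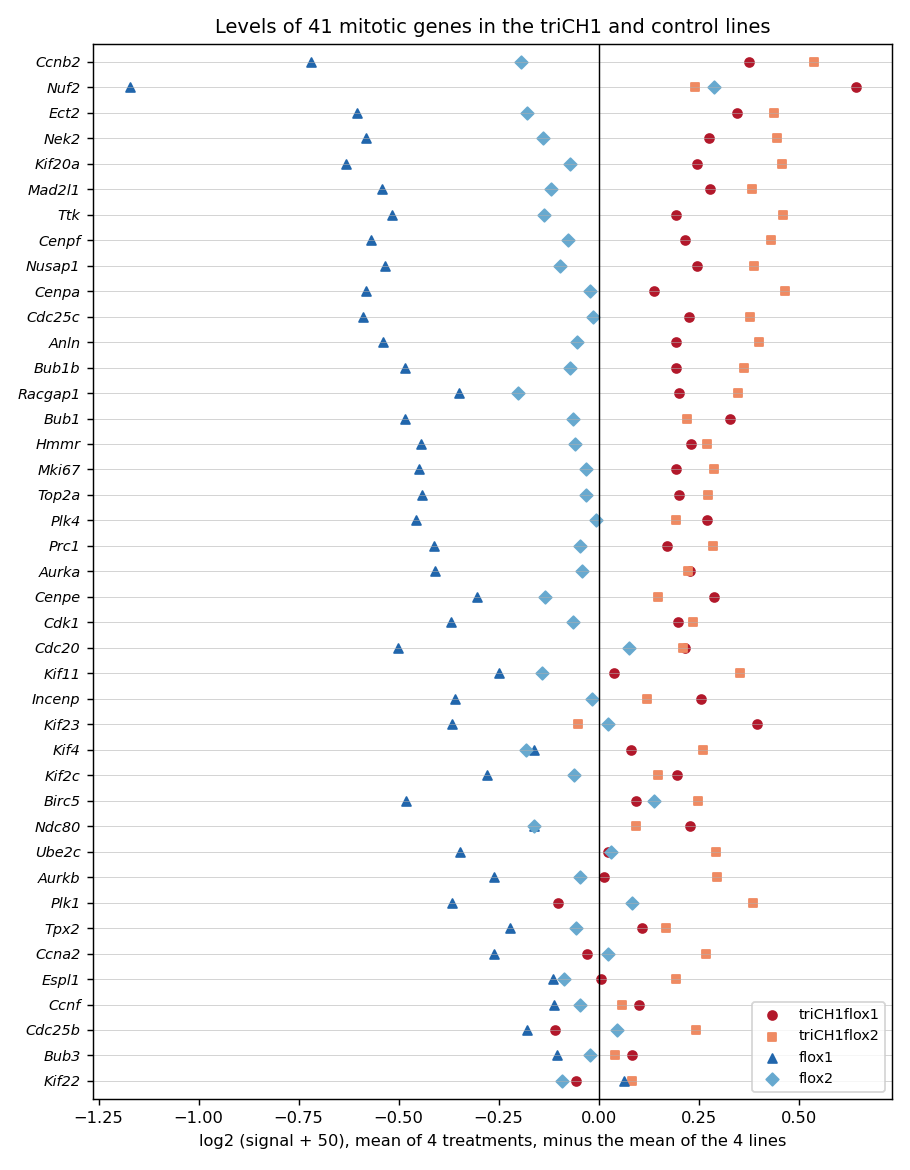
Level of 41 mitotic genes in each line, as the mean of log2(signal + 50) over the 4 treatments minus the mean of the 4 lines (x axis), with genes ordered by the triCH1 minus control difference. Points of flox1 are leftmost for 39 of 41 genes, and both triCH1 lines lie right of both control lines for 33.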

How the data were processed

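RNA of 4 mouse embryonic fibroblast lines under 4 treatments was measured on 16 arrays. Per the labels' protocols, total RNA gave the labelled target, and each probe set's deposited intensity is a signal of the array software's statistical algorithm scaled to 500, near which the 2% trimmed mean lay (500.003 on each array). The sources used here name no software version. The precision is limited by the number of arrays.

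Of 45101 probe sets, 64 were controls, 34945 had 1 gene symbol, 932 several and 9160 none, and only those with 1 symbol were used. The tests ran on log2(signal + 50) in R 4.3.3 with limma 3.58.1 (trended empirical Bayes, Benjamini-Hochberg adjustment over 11481 genes). The filter was a signal of 200 or more on at least 2 arrays, and the probe set with the highest mean stood for a gene. Treatments were compared in 1 fit of 16 arrays with 8 group means and the line as a block (6 residual and 10.4 prior degrees of freedom). The pairing comes from the design, since each line received every treatment. Deviations of the arrays of a line from group means correlated with r of 0.160 to 0.328 in control and 0.0770 to 0.320 in triCH1 lines (12 pairs each). With 2 arrays a group, the deviations of 1 line are those of the other with the sign turned. The pairs of the 2 lines of a class therefore repeat the same values. Classes were compared over 2 lines against 2.

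The members and lists were chosen with earlier results of these data known. Named with values are, in each comparison, up to 6 members past the threshold with the largest change, and Plk1, Aurka, Cdc20, Cenpe, Kif20a, Top2a and Mki67 throughout. Ccnb1 was also meant to be named throughout but was not analysed. Of other mitotic genes, 6 with the smallest adjusted p were named. The list of 115 other mitotic genes had 111 tested, that of 31 DNA replication genes 30. Checks and markers were listed with them. The alternatives were pseudocounts of 16 and 200, other filters, quantile normalization, the mean over probe sets, no variance trend, no line block, a term for the array barcode series, each line left out, the flox1 vehicle array left out and, added after the data were seen, no probe sets that can bind several transcripts (suffixes _x_at and _s_at). The fits of TSA against vehicle and of line means were run on simulated data with independent noise for each array and no line effect. The use of the line pairing was thus not tested there, nor were the random line block and the fits without a line. Figures were drawn with matplotlib 3.10.9 in Python 3.11.15.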

Additional observations from a re-analysis of the deposited data

Results flagged for a closer look

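Across 68 sets of 4 line values, 3 had 1 line beyond Dixon's critical value for 4 values, and chance places about 1 in 20 sets there. The Cdk1 change with TSA was 0.051 in flox1, while triCH1flox1, triCH1flox2 and flox2 had -0.64, -0.60 and -0.55. The Cdk1 change with TSA and DP, against vehicle, was 0.0016 in flox1, while triCH1flox1, triCH1flox2 and flox2 had -0.62, -0.73 and -0.66. Both use the flox1 vehicle array, where the Cdk1 signal was 3329.5, against 5706 to 6977 in the other lines with vehicle. The RNA integrity ratios of that array stood apart, and their part in these values was not tested. The flox1 line also had the lowest Cdk1 signal of the lines with TSA (3450.9), with DP (4453.8) and with both agents (3333.2). With DP as the comparator the Cdk1 change with TSA was -0.41 in flox1. The median change of the 41 members with DP was -0.052 in triCH1flox1, while triCH1flox2, flox1 and flox2 had -0.25, -0.24 and -0.24. Only in triCH1flox1 did the DP and vehicle arrays come from different barcode series, so line and series cannot be told apart there.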

How the results depend on the processing

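Of 15 comparisons, 6 called 0 members under the fit and under all alternatives run. The count of 20 with TSA against vehicle ran from 15 to 20 over its 15 alternatives, and 8 of the 20 calls passed in all of them. Of all genes, 3241 passed in that fit, 2992 with the mean of probe sets and 2622 without the line as a block. Fewer of all genes also passed when any 1 line was left out. That of 21 with both agents ran from 17 to 24, and 11 calls passed in all. The count of 5 with DP became 2 without the filter, 3 with the mean of probe sets, 1 without the variance trend and 3 without probe sets that can bind several transcripts, and 0 to 1 when a line or the flox1 vehicle array was left out. The count of 2 with DP in control lines became 1 without the filter, 1 with the mean of probe sets, 0 without the variance trend and 1 without probe sets that can bind several transcripts, and 0 to 1 when a line or that array was left out, when the 1 called was a different gene and 0 of the 2 calls held. With DP in triCH1 lines leaving out a line gave 0 to 1. The count of 17 with TSA in DP became 12 with the mean of probe sets, and 8 to 19 when a line or that array was left out. For triCH1 against control, leaving out a line gave 0 to 3 members with TSA, 0 to 2 with TSA and DP and 0 to 21 on line means, and the random line block 16. Without the replicate block for the line, the calls numbered 1 with DP, 0 with DP in control lines, 9 with TSA in DP, 16 with TSA and 18 with both agents. The block rests on the design, so these are given for comparison. Prc1 with both agents turned to 0.15 without probe sets that can bind several transcripts. Over all calls and alternatives, 787 of 975 kept their call, 187 missed the threshold in the same direction, and Prc1 was the 1 that turned. The cause was not tested, except that leaving out a line leaves fewer arrays. No barcode series term was run for triCH1 against control with vehicle or on line means, where it could not be fitted. Signal over background limits dim members, and 2 lines a class limit what a class comparison can call.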
